A study of Mus musculus with 6 samples.

Results

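Interferon-stimulated genes are the genes that cells switch on after an interferon binds its receptor. The account covers 40 of them, of 56748 genes listed, chosen by name and function: 30 antiviral genes tied chiefly to type I interferon, 7 GTPases inducible by interferon-gamma (*Gbp2*, *Gbp3*, *Gbp7*, *Irgm1*, *Irgm2*, *Igtp* and *Iigp1*), and 3 genes placed in neither set (*Irf1*, *Tap1* and *Ifi47*). Earlier results of these data were known when the members were chosen. The comparison of interest is between the antiviral set and the GTPases, in all 6 libraries.

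Polyadenylated RNA was sequenced in bulk from 3 cultures labelled scrambled ASO and 3 labelled *Pgam* ASO, to ask which transcripts differ when *Pgam* is targeted while regulatory T (Treg) cells form. Naïve CD4 T cells of wild-type C57BL/6J mice aged 6–10 weeks were the starting cells; the methods name spleen and lymph nodes as their source, and the labels name splenocytes. Every culture was activated with plate-bound anti-CD3 and soluble anti-CD28 under Treg polarizing conditions (IL-2, TGF-β, anti-IFNγ and anti-IL-4) and received its antisense oligonucleotide (ASO), either a scrambled control or one directed to *Pgam*, from day 0 until harvest on day 3. The cells were not sorted after culture, and no source used here says whether cultures with the same replicate number shared a mouse. The anti-IFNγ antibody, which neutralizes the main inducer of the GTPases, was thus present in both groups.

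Total estimated counts in the libraries labelled scrambled ASO were 17588755, 18032805 and 16231127. In those labelled *Pgam* ASO the totals were 16589933, 15860476 and 16803881. Levels are given as CPM, counts relative to the TMM-scaled total of the library, and group values as mean ± SD with n = 3. Fold changes are *Pgam* ASO over scrambled ASO on the log2 scale with a standard error (SE). A gene passed the test, and is said to have risen or fallen, when edgeR's quasi-likelihood test gave it an adjusted p (Benjamini-Hochberg) under 0.05. These p-values measure the spread between these cultures. In bulk RNA, fewer cells of a type and less RNA per cell cannot be told apart.

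The transcripts that the ASO names were measured first. *Pgam1*, which encodes the glycolytic enzyme phosphoglycerate mutase, had 10655, 8847 and 11414 counts in the libraries labelled scrambled ASO, against 10601, 10299 and 11949 where the label is *Pgam* ASO. The groups overlapped, and no library labelled *Pgam* ASO fell below the lowest one labelled scrambled ASO. *Pgam1* stood at 595 ± 115 against 675 ± 27.4 CPM, a log2 difference of 0.18 (SE 0.13, adjusted p = 0.331 edgeR quasi-likelihood test, Benjamini-Hochberg adjusted), and 37.1% of its 31-base stretches also occur in a pseudogene, *Pgam1-ps2*. Summing the counts of *Pgam1* with the genes that share its stretches left the log2 difference at 0.18. *Pgam2*, the muscle form, had 93, 125 and 46 counts against 48, 42 and 44, again with overlapping groups (log2 difference −0.84, SE 0.31, adjusted p = 0.0854 by the same edgeR test with Benjamini-Hochberg adjustment). Neither transcript passed the test, so the groups are named by their labels throughout. Protein was not measured in these libraries.

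As background, type I interferons bind the receptor made of IFNAR1 and IFNAR2, whose kinases JAK1 and TYK2 pass the signal on to a complex that holds STAT2 and IRF9 and binds interferon-stimulated response elements (ISRE) in front of antiviral genes. Interferon-gamma binds IFNGR1 and IFNGR2, which signal through JAK1 and JAK2 and induce IRF1, a factor that binds ISRE-like elements and switches on further genes. Many genes answer to both interferons. The guanylate-binding proteins (Gbp genes) and the immunity-related GTPases (Irgm genes, *Igtp*, *Iigp1*) are families that act against intracellular microbes. Some members assemble on the vacuoles of these microbes and others regulate their partners. T cells express several of them.

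The GTPases were lower in the libraries labelled *Pgam* ASO, whereas the antiviral genes were split in direction. Of the 7 GTPases, 6 fell, against 9.15% of all 14936 tested genes, and the seventh, *Irgm1*, did not pass. Their median log2 difference was −0.73, beside −0.00608 over all tested genes. For these 6 GTPases the 3 libraries labelled *Pgam* ASO lay below the 3 labelled scrambled ASO, a pattern shown by 19.8% of tested genes. Of the 30 antiviral genes, 29 passed the filter on low counts; 4 rose (*Isg15*, *Bst2*, *Ifi35* and *Oas3*), against 8.03% of all tested genes, and 1 fell (*Parp14*). The antiviral median was −0.0367, with 15 negative and 14 positive values, and 16 negative and 13 positive when libraries were scaled by size alone. All 3 libraries labelled *Pgam* ASO lay above the others for 7 antiviral genes, against 19.6% of tested genes, and below them for 5, while the groups overlapped for 17. Over all 40 members, 39 were tested, 9 fell and 4 rose, with a median of −0.18. Since the sets were chosen with earlier results of these data known, these shares describe the sets and are not a test of them. Whether the sets differ from each other was not tested.

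**Figure D1:**
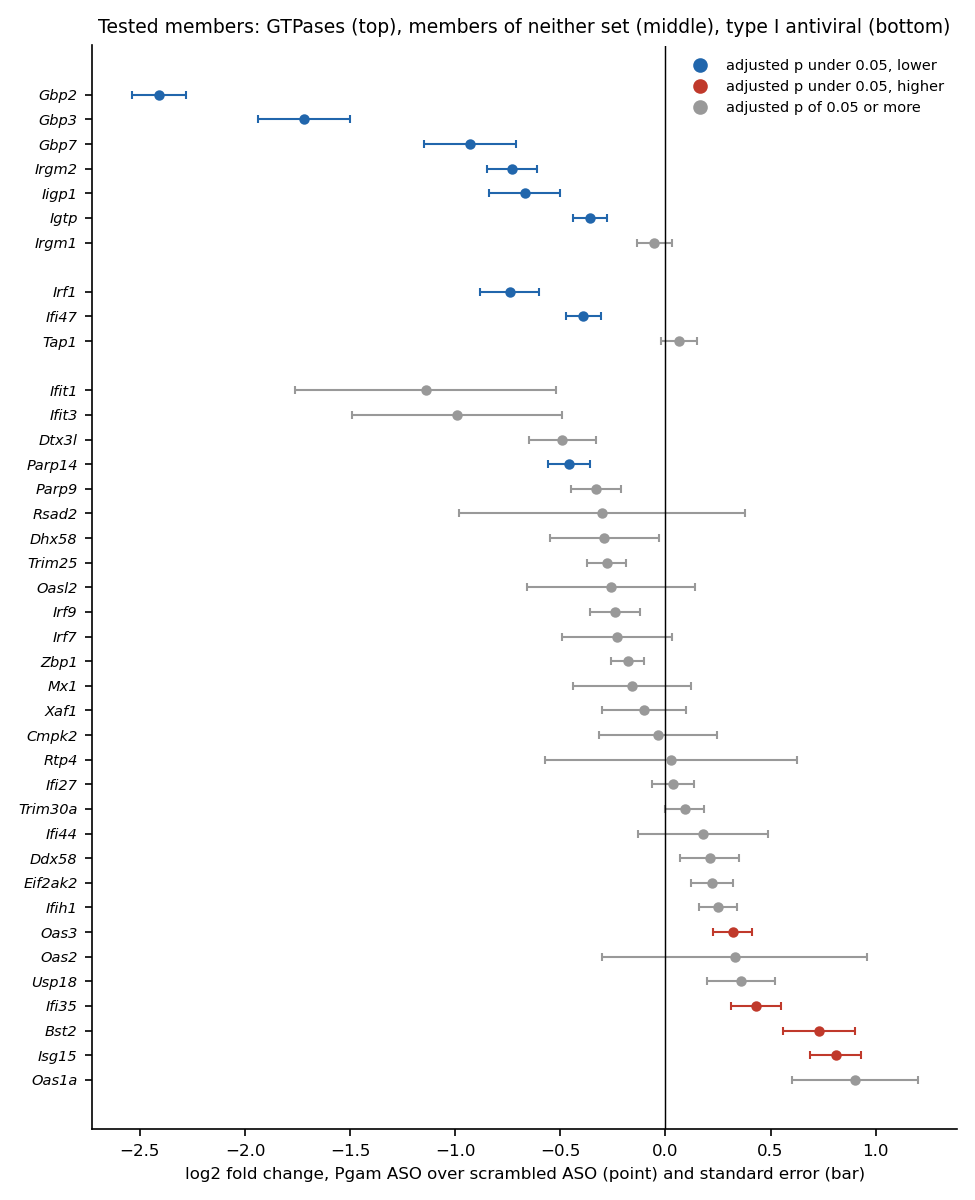
Log2 fold change (*Pgam* ASO over scrambled ASO, horizontal axis) of the 39 tested members, with bars of 1 standard error and color for the outcome of edgeR's test. The GTPases run from −2.41 to −0.05, all left of 0, while the antiviral genes run from −1.14 to 0.90 on both sides of it.

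How many members passed depended on single libraries. The GTPases that fell numbered 3 without scrambled ASO replicate 1, 4 without scrambled ASO replicate 2, 4 without *Pgam* ASO replicate 1 and 3 without *Pgam* ASO replicate 2, though all 7 log2 values were negative under each scaling, each tool and each omission of a library. The 9 members that fell became 3, 5 and 3 without scrambled ASO replicate 1, *Pgam* ASO replicate 1 and *Pgam* ASO replicate 2. The antiviral genes that rose became 1, 2, 1 and 1 without scrambled ASO replicates 1 and 2 and *Pgam* ASO replicates 1 and 2. Those that fell became 5 without either group's replicate 3, and 0 without scrambled ASO replicate 1, *Pgam* ASO replicate 1 or *Pgam* ASO replicate 2. The antiviral median turned to 0.12 without scrambled ASO replicate 2 and to 0.0744 without *Pgam* ASO replicate 1, and that of all members, −0.18 with all 6 libraries, to 0.0365 and −0.0276 in those cases. Without scrambled ASO replicate 3 or *Pgam* ASO replicate 3 the antiviral median was further below 0, at −0.27 and −0.25, and that of all members was −0.32 in both cases. Over all tested genes, 1366 fell and 1199 rose. Those counts dropped to 397 and 223 without scrambled ASO replicate 1, and to 760 and 496 without scrambled ASO replicate 2. They dropped to 544 and 327 without *Pgam* ASO replicate 1, and to 231 and 160 without *Pgam* ASO replicate 2.

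*Gbp2*, a guanylate-binding protein that helps to break open microbial vacuoles, showed the largest difference of the members. It stood at 82.8, 74.8 and 77.6 CPM in the libraries labelled scrambled ASO and at 11.6, 16.2 and 16.4 CPM in those labelled *Pgam* ASO. All 3 values of the second group were far below the lowest of the first. *Gbp2* was 5.31-fold lower, from 78.4 ± 4.05 to 14.7 ± 2.71 CPM (log2 −2.41, SE 0.13, adjusted p = 3.71e-05, edgeR quasi-likelihood, Benjamini-Hochberg). *Gbp3*, a neighbour of the same family, measured 18.8, 22.5 and 16 CPM against 4.04, 6.1 and 7.28 CPM. Again each library labelled *Pgam* ASO was below each labelled scrambled ASO, and the difference was 3.28-fold (log2 −1.72, SE 0.22, adjusted p = 0.00173, edgeR quasi-likelihood, Benjamini-Hochberg). The calls of *Gbp2* and *Gbp3* held with any one of the 6 libraries left out.

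*Gbp7*, another guanylate-binding protein, read 26.3, 26.4 and 19.3 CPM in the libraries labelled scrambled ASO and 8.26, 14.6 and 15 CPM in those labelled *Pgam* ASO. The groups did not overlap, although *Pgam* ASO replicate 1 was well below its other replicates. *Gbp7* fell 1.91-fold (log2 −0.93, SE 0.22, adjusted p = 0.0236, edgeR quasi-likelihood, Benjamini-Hochberg). It missed the threshold without scrambled ASO replicate 1, scrambled ASO replicate 2 or *Pgam* ASO replicate 2 (edgeR quasi-likelihood, Benjamini-Hochberg adjusted p from 0.0723 to 0.0832). A share of 14.7% of its 31-base stretches occurs in other genes, mostly the gene model *Gm43802*, and the summed counts gave −0.93 as well.

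*Irgm2*, an immunity-related GTPase that restrains its partners on host membranes, had 57.6, 56.8 and 50.6 CPM against 29.2, 32.4 and 38.2 CPM in the libraries labelled *Pgam* ASO. The highest of the latter was below the lowest of the former. *Irgm2* fell 1.65-fold (log2 −0.73, SE 0.12, adjusted p = 0.00501, edgeR quasi-likelihood, Benjamini-Hochberg), a call that no single library ended. *Igtp*, also known as Irgm3 and needed for the vacuole attack, had 216, 205 and 225 CPM against 157, 171 and 175 CPM. The groups were apart but the step was small, 1.28-fold (log2 −0.36, SE 0.082, adjusted p = 0.0198, edgeR quasi-likelihood, Benjamini-Hochberg). Without scrambled ASO replicate 1, *Pgam* ASO replicate 1 or *Pgam* ASO replicate 2, *Igtp* missed the threshold (edgeR quasi-likelihood, Benjamini-Hochberg adjusted p from 0.078 to 0.0912). The annotated bodies of *Igtp* and *Irgm2* overlap by 7974 bases on the same strand and 10.7% of the 31-base stretches of *Irgm2* occur in other genes, mostly *Igtp*, so the split of reads between them is uncertain. Their summed counts gave a log2 difference of −0.43 (adjusted p = 0.011, edgeR quasi-likelihood, Benjamini-Hochberg).

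*Iigp1*, an effector GTPase that is loaded onto microbial vacuoles, had 17.2, 18.1 and 13.8 CPM in the libraries labelled scrambled ASO and 8.82, 12.6 and 9.59 CPM in those labelled *Pgam* ASO. *Pgam* ASO replicate 2 came close to scrambled ASO replicate 3, but the groups did not overlap. *Iigp1* fell 1.59-fold (log2 −0.67, SE 0.17, adjusted p = 0.0307, edgeR quasi-likelihood, Benjamini-Hochberg). Leaving out any library but scrambled ASO replicate 3 ended the call (edgeR quasi-likelihood, Benjamini-Hochberg adjusted p from 0.0537 to 0.106). *Irgm1*, a regulatory member whose loss in mice impairs the survival of activated CD4 T cells, had 80, 85.1 and 75.5 CPM against 76.1, 76.8 and 79.2 CPM. Its groups overlapped fully, and its log2 difference of −0.0521 (SE 0.0814, adjusted p = 0.685, edgeR quasi-likelihood, Benjamini-Hochberg) did not pass.

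**Figure D2:**
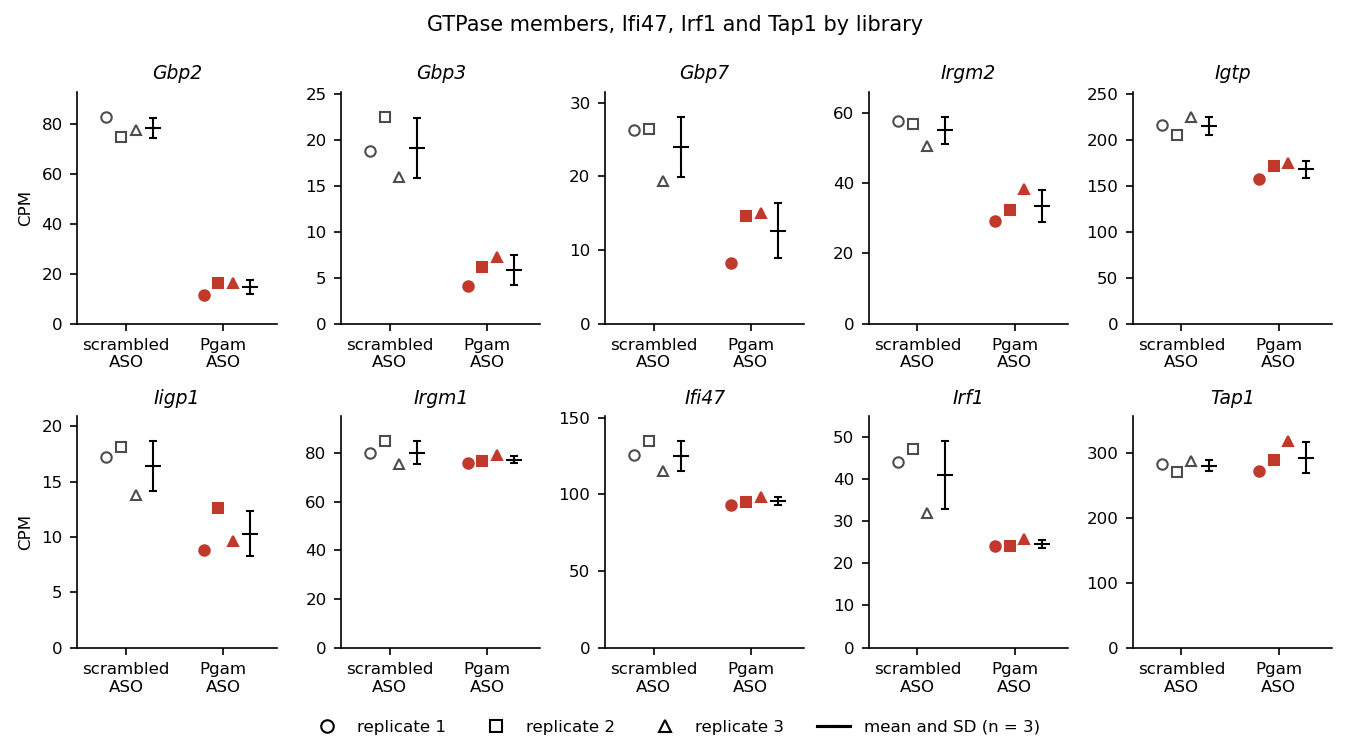
CPM of the 7 GTPase members, *Ifi47*, *Irf1* and *Tap1* in the 6 libraries, 1 panel a gene with its own vertical axis from 0, a point for each library and a cross with its bar for group mean and SD (n = 3). The libraries labelled *Pgam* ASO lie below all those labelled scrambled ASO in each panel but those of *Irgm1* and *Tap1*, where the groups overlap.

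Levels per kilobase divide CPM by the length of all annotated exons of a gene, whether expressed or not, so comparisons between genes are approximate. On this scale *Igtp* was the most abundant GTPase member in both groups. It stood at 106 CPM per kb in the libraries labelled scrambled ASO, against 83 where the label is *Pgam* ASO. *Gbp2* was next in the first group at 31.2 CPM per kb and reached 5.86 in the second. *Irgm2* and *Irgm1* lay close together at 14.9 and 13.8 CPM per kb in the libraries labelled scrambled ASO, and apart at 9.01 and 13.3 in those labelled *Pgam* ASO. The order of the set therefore differed between the groups, with *Gbp2* behind *Igtp* alone in one and behind *Igtp*, *Irgm1* and *Irgm2* in the other. *Gbp3*, *Gbp7* and *Iigp1* had the lowest levels, 5.84, 4.28 and 2.82 CPM per kb in the libraries labelled scrambled ASO, against 1.78, 2.24 and 1.78 where the label is *Pgam* ASO. Summed over the 7 genes, the level was 499, 489 and 478 CPM against 295, 330 and 340 CPM, so the set as a whole lay lower in each library labelled *Pgam* ASO.

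Some of the GTPases that fell are near each other in the genome. On GRCm38, *Gbp7* (ENSMUSG00000040253), *Gbp3* (ENSMUSG00000028268) and *Gbp2* (ENSMUSG00000028270) occupy 108 kb, chr3:142530342-142638008, on the plus strand, with the untested *Gbp2b* between *Gbp3* and *Gbp2*. *Igtp* (ENSMUSG00000078853) and *Irgm2* (ENSMUSG00000069874) occupy 23.2 kb, chr11:58199556-58222782, also on the plus strand. A grouping by chromosome, made after the values were seen, added genes from the wider GTPase list. All 4 tested Gbp genes of chromosome 3 (*Gbp2*, *Gbp3*, *Gbp5* and *Gbp7*) fell (100%, against 9.15% of all tested genes), with a median of −1.67; the count was 3 without scrambled ASO replicate 1, scrambled ASO replicate 2 or *Pgam* ASO replicate 2. Of the 7 immunity-related GTPases of chromosome 11, 5 fell (71.4%, against the same 9.15%), and the count was 3, 3 and 2 without scrambled ASO replicate 1, *Pgam* ASO replicate 1 and *Pgam* ASO replicate 2, and 3 with a replicate block. The 6 Gbp genes of chromosome 5 had log2 differences between −1.22 and 0.53 with a median of −0.42, and adjusted p of 0.0573 or more (edgeR quasi-likelihood, Benjamini-Hochberg). DESeq2 called 2 of them lower, edgeR without a filter on low counts 3, edgeR without scrambled ASO replicate 3 also 3, edgeR without *Pgam* ASO replicate 3 called 1, and edgeR on genes with at least 10 counts in every library called 1 of the 5 it tested.

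Promoters are shown for members of both sets, since the ISRE is an element through which interferons reach many of these genes; the genes printed were chosen after their values were seen. A search covered the 250 bases before each RefSeq transcription start (GRCm38.p6) on both strands, for GAAANNGAAA as an ISRE-type motif, and 30 of the 40 members had an entry. The ISRE-type letters occurred in 6 of 6 GTPases and 8 of 21 antiviral genes with an entry, against 3.46% of 27025 genes and 2.98% of 32851 promoter windows. They did not occur in the entries of *Irf1*, *Tap1* and *Ifi47*, the members placed in neither set. Capitals below mark the matched letters, read 5′ to 3′ on the strand of the gene; in *Gbp3*, *Isg15* and *Bst2* neighbouring matches overlap each other. The stretches are *Gbp2* at chr3:142620544-142620623 (plus strand, 22 of its bases annotated as exon), *Gbp3* at chr3:142559939-142560024 (plus), *Gbp7* at chr3:142530223-142530302 (plus), *Igtp* at chr11:58199462-58199541 (plus), *Irgm2* at chr11:58214853-58214932 (plus), *Isg15* at chr4:156200865-156200956 (minus), *Bst2* at chr8:71537577-71537662 (minus) and *Ifit1* at chr19:34640725-34640823 (plus).
Gbp2: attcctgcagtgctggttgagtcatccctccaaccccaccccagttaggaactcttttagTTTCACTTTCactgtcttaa
Gbp3: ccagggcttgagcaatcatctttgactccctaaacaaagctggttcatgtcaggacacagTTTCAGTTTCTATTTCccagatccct
Gbp7: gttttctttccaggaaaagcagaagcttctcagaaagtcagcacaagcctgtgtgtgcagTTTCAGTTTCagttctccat
Igtp: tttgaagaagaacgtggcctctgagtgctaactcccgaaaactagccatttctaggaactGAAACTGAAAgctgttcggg
Irgm2: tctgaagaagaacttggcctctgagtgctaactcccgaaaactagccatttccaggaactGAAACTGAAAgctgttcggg
Isg15: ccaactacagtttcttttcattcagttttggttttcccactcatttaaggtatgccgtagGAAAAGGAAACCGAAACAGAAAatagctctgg
Bst2: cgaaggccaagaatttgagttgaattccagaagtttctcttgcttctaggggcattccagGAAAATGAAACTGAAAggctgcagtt
Ifit1: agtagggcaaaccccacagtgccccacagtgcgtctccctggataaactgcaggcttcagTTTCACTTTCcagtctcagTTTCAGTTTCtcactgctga

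The stretches of *Igtp* and *Irgm2* are the same at 77 of 80 positions. The gene that fell most, *Gbp2*, and one that was variable among replicates, *Ifit1*, both hold the ISRE-type letters. *Irgm1*, which did not pass the test, has the ISRE-type letters as well. *Ifi47* and *Irf1*, which fell, and *Ifi35*, which rose, have an entry without these letters. A match is a description of letters only.

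*Irf1* encodes a transcription factor that interferon-gamma induces and that drives many GTPase genes. It stood at 44.1, 47.3 and 32 CPM in the libraries labelled scrambled ASO and at 24.1, 24.1 and 25.8 CPM in those labelled *Pgam* ASO. The second group was tight and lay below all of the first, in which replicate 3 was lowest. *Irf1* fell 1.67-fold (log2 −0.74, SE 0.14, adjusted p = 0.0111, edgeR quasi-likelihood, Benjamini-Hochberg), a call lost without scrambled ASO replicate 1 or *Pgam* ASO replicate 2 (edgeR quasi-likelihood, Benjamini-Hochberg adjusted p of 0.0548 to 0.0718). *Ifi47*, also an immunity-related GTPase though listed apart from the 7, measured 126, 135 and 115 CPM against 93.3, 94.8 and 98.5 CPM. The groups did not overlap, and the gene fell 1.31-fold (log2 −0.39, SE 0.0853, adjusted p = 0.0171, edgeR quasi-likelihood, Benjamini-Hochberg). It missed the threshold without scrambled ASO replicate 1, *Pgam* ASO replicate 1 or *Pgam* ASO replicate 2 (edgeR quasi-likelihood, Benjamini-Hochberg adjusted p from 0.0613 to 0.0928). *Tap1*, a subunit of the peptide transporter for antigen presentation, had overlapping groups, 282, 270 and 287 CPM against 271, 288 and 318 CPM, and a log2 difference of 0.0632 (SE 0.0859, adjusted p = 0.635, edgeR quasi-likelihood, Benjamini-Hochberg).

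Among the antiviral genes, *Isg15*, a ubiquitin-like protein that is attached to other proteins, read 18.2, 14.4 and 18.2 CPM in the libraries labelled scrambled ASO and 29.3, 30.8 and 28.8 CPM in those labelled *Pgam* ASO. Each library of the second group was above each of the first. *Isg15* rose 1.75-fold (log2 0.81, SE 0.12, adjusted p = 0.00391, edgeR quasi-likelihood, Benjamini-Hochberg), and no left-out library ended the call. *Bst2*, or tetherin, which holds budding virus particles at the cell surface, had 75.6, 56.3 and 96.4 CPM against 140, 121 and 118 CPM. The groups were apart although the libraries labelled scrambled ASO were spread, and *Bst2* rose 1.66-fold (log2 0.73, SE 0.17, adjusted p = 0.0242, edgeR quasi-likelihood, Benjamini-Hochberg). That call was lost without scrambled ASO replicate 1, *Pgam* ASO replicate 1 or *Pgam* ASO replicate 2 (edgeR quasi-likelihood, Benjamini-Hochberg adjusted p from 0.073 to 0.0862).

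*Ifi35*, an interferon-induced leucine zipper protein, had 35.5, 33.2 and 41.3 CPM against 55, 43.9 and 49.3 CPM in the libraries labelled *Pgam* ASO. The lowest of these was just above the highest of the others, and *Ifi35* rose 1.35-fold (log2 0.43, SE 0.12, adjusted p = 0.0349, edgeR quasi-likelihood, Benjamini-Hochberg). *Oas3*, a synthetase that answers double-stranded RNA by making 2′,5′-linked oligoadenylate, had 137, 122 and 146 CPM against 166, 160 and 180 CPM. Its groups did not overlap, and it rose 1.25-fold (log2 0.32, SE 0.093, adjusted p = 0.0412, edgeR quasi-likelihood, Benjamini-Hochberg). *Ifi35* missed the threshold without scrambled ASO replicates 1 or 2 or *Pgam* ASO replicates 1 or 2 (edgeR quasi-likelihood, Benjamini-Hochberg adjusted p from 0.0784 to 0.123). *Oas3* missed it when any library but scrambled ASO replicate 3 was left out (0.0851 to 0.125, edgeR quasi-likelihood with Benjamini-Hochberg adjustment), and with scaling by library size alone (0.0531, same test).

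*Parp14*, an ADP-ribosyltransferase, was the antiviral member that fell. It had 163, 193 and 153 CPM in the libraries labelled scrambled ASO and 114, 127 and 130 CPM in those labelled *Pgam* ASO, with no overlap. The gene fell 1.37-fold (log2 −0.46, SE 0.10, adjusted p = 0.0197, edgeR quasi-likelihood, Benjamini-Hochberg), a call lost without scrambled ASO replicate 1, *Pgam* ASO replicate 1 or *Pgam* ASO replicate 2 (edgeR quasi-likelihood, Benjamini-Hochberg adjusted p from 0.0642 to 0.0893). Its neighbours *Parp9* and *Dtx3l*, whose products work as a pair in ubiquitin signalling, also lay lower in all 3 libraries labelled *Pgam* ASO but did not pass. *Parp9* had a log2 difference of −0.33 (SE 0.12, adjusted p = 0.0849, edgeR quasi-likelihood, Benjamini-Hochberg) and *Dtx3l* −0.49 (SE 0.16, adjusted p = 0.0623, same test). *Parp9* passed without a filter on low counts (0.0202) and without scrambled ASO replicate 3 (0.0383, same test). *Dtx3l* passed in those cases (8.54e-05 and 0.0445), without *Pgam* ASO replicate 3 (0.0133) and with DESeq2 (0.0203). The 3 genes span 140 kb of chromosome 16, and *Parp9* and *Dtx3l* overlap by 682 bases on opposite strands; since the strand used in counting is not stated, their split of reads is uncertain.

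**Figure D3:**
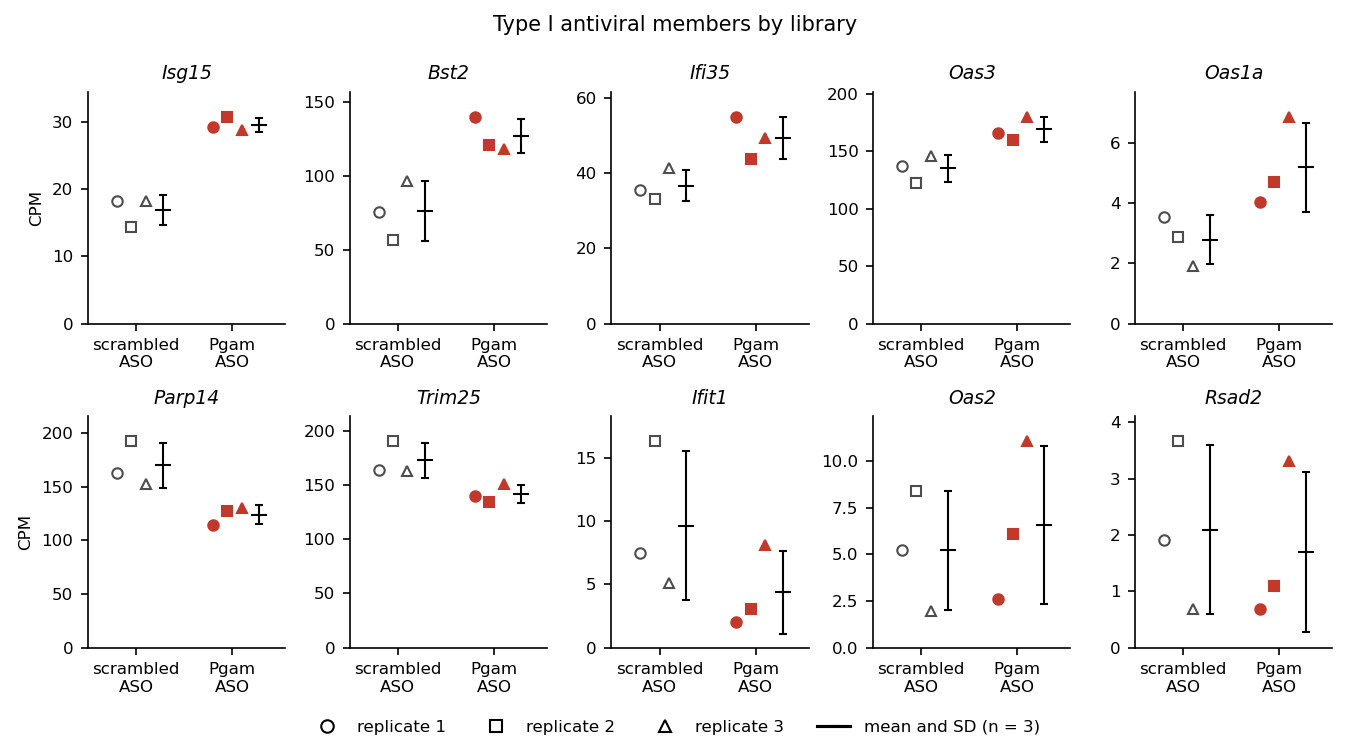
CPM of 10 antiviral members in the 6 libraries, 1 panel a gene with its own vertical axis from 0, a point for each library and a cross with its bar for group mean and SD (n = 3). *Isg15* in the libraries labelled *Pgam* ASO lies at 28.8 CPM or more against at most 18.2 CPM in the others, *Parp14* lies lower, and the groups of *Ifit1*, *Oas2* and *Rsad2*, added after their values were seen, overlap.

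*Trim25*, a ubiquitin ligase of the RIG-I pathway, had 164, 191 and 163 CPM against 140, 134 and 151 CPM. All libraries labelled *Pgam* ASO were lower, with a log2 difference of −0.28 (SE 0.0927, adjusted p = 0.0597, edgeR quasi-likelihood, Benjamini-Hochberg); it passed with DESeq2 (0.0471) and without replicate 3 of either group (0.0457 and 0.0492, edgeR). *Oas1a*, another oligoadenylate synthetase, had 3.55, 2.86 and 1.92 CPM against 4.04, 4.68 and 6.86 CPM. Its groups did not overlap either, but the difference of 0.90 (SE 0.30, adjusted p = 0.0614, edgeR quasi-likelihood, Benjamini-Hochberg) did not pass, and 68.8% of its 31-base stretches occur in other genes. *Oas1a* passed with DESeq2 (adjusted p = 0.0307) and in edgeR without a filter on low counts (0.0122). *Irf7*, the factor that amplifies type I interferon production, had 42.7, 53.3 and 32.1 CPM against 25.4, 35.4 and 48.2 CPM, with overlapping groups (log2 −0.23, SE 0.26, adjusted p = 0.559, edgeR quasi-likelihood, Benjamini-Hochberg). *Irf9*, the DNA-binding partner of STAT2, had 105, 122 and 89.5 CPM against 84, 87.4 and 97.2 CPM. These groups overlapped too (log2 −0.24, SE 0.12, adjusted p = 0.173, edgeR quasi-likelihood, Benjamini-Hochberg), and without scrambled ASO replicate 3 *Irf9* passed (0.0422, same test). *Oasl1*, an oligoadenylate synthetase-like protein, was the one member removed by the filter on low counts, with 11, 8 and 8 counts against 4, 4 and 9.

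Several antiviral genes varied more between cultures of a group than between groups. The highest library of *Rsad2*, which encodes viperin, was 5.39 times the lowest among those labelled scrambled ASO and 4.85 times among those labelled *Pgam* ASO. For *Oas2* the ratios were 4.25 and 4.24, and for *Ifit1*, which binds foreign RNA, 3.18 and 4.08. By contrast, the ratios of *Isg15* were 1.27 and 1.07. The antiviral genes tended to be high and low in the same cultures. In the group labelled scrambled ASO, replicate 3 was the lowest library for 21 of the 29 tested antiviral genes and replicate 2 the highest for 21, while over all tested genes those libraries were lowest for 37.4% and highest for 39%. In the group labelled *Pgam* ASO, replicate 1 was lowest for 22 and replicate 3 highest for 20, against 36.8% and 37.9% over all tested genes. Genes outside the set shared this order, among them *Foxp3* (282, 371 and 222 against 89.7, 109 and 131 CPM), *Ifnar1* and *Ifngr1*. The order was thus not particular to the antiviral genes, and *Il2ra* had its reverse (1946, 1627 and 2216 against 2908, 2900 and 2495 CPM). Among the 7 GTPases, *Pgam* ASO replicate 1 was lowest in its group for 7 and replicate 3 highest for 6. The scrambled ASO cultures were less clearly ordered for these genes, with replicate 3 lowest for 5 and replicate 2 highest for 4 but lowest for 2, and their summed levels were close (499, 489 and 478 CPM). *Ifit1*, the antiviral member with the most negative difference, shows the pattern, with 7.48, 16.4 and 5.14 CPM against 1.99, 3.02 and 8.11 CPM. Its groups overlapped through *Pgam* ASO replicate 3, which was above scrambled ASO replicates 1 and 3. The log2 difference of −1.14 had an SE of 0.62 (adjusted p = 0.238, edgeR quasi-likelihood, Benjamini-Hochberg), and without *Pgam* ASO replicate 3 it was −1.94 (0.0341, same test). *Ifit3* had a log2 difference of −0.99 (adjusted p = 0.192, edgeR quasi-likelihood, Benjamini-Hochberg) and was lower without a filter on low counts (0.0383, same test). It shares 61.8% of its 31-base stretches with its paralogue *Ifit3b*, and their summed counts gave −1.22 (adjusted p = 0.13, same test). *Usp18* (0.36, adjusted p = 0.145, same test) was higher without that filter (0.0358) and without scrambled ASO replicate 3 (0.0243). *Dhx58* (−0.29, adjusted p = 0.463, same test) was lower without *Pgam* ASO replicate 3 (0.0239). Among members that did not pass, the sign of *Rtp4* depended on the tool, the scaling and the replicate block, and that of *Cmpk2* on the tool and the block. Leaving out single libraries turned the sign of both, of *Rsad2* (from −0.30 to as much as 0.38) and *Oas2* (from 0.33 to as low as −0.26), and of *Mx1*, *Oasl2*, *Xaf1* and *Ifi27*.

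**Figure D4:**
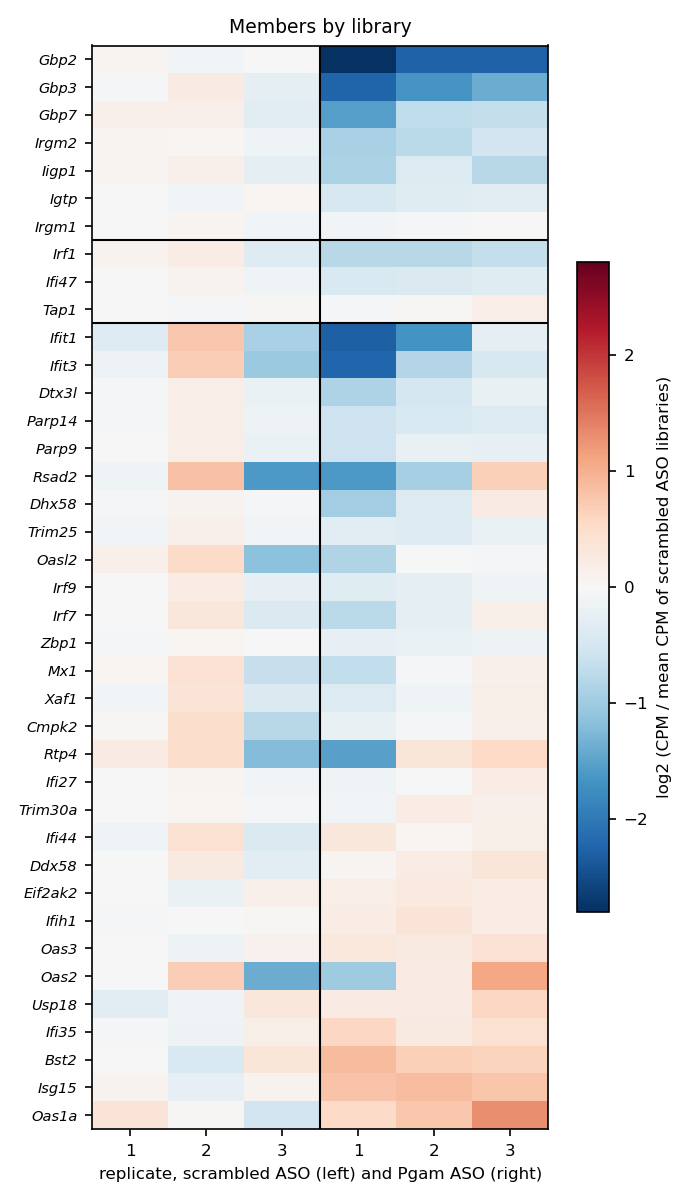
Heat map of the 39 tested members (rows, by set) in the 6 libraries (columns), each cell the log2 ratio of CPM to the gene's mean over the libraries labelled scrambled ASO. The GTPase rows are lower across the columns labelled *Pgam* ASO (medians −0.913, −0.722 and −0.682), whereas the antiviral medians differ between columns of one label (−0.298, −0.0105 and 0.175).

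The level of each set was also read library by library. The median log2 ratio of the 7 GTPases to their scrambled ASO mean was 0.0662, 0.0852 and −0.119 in the libraries labelled scrambled ASO. It was −0.913, −0.722 and −0.682 in those labelled *Pgam* ASO, well apart from the first group. For the 29 antiviral genes the medians were −0.0205, 0.186 and −0.195 against −0.298, −0.0105 and 0.175, and the groups overlapped. The summed antiviral level was 1693, 1844 and 1638 CPM against 1573, 1703 and 1841 CPM.

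Beyond the members, the wider pathway was read from lists of ligands, receptors and signalling genes, again chosen with earlier results known. Of these 38 genes, 28 were tested, 9 fell (32.1%, against 9.15% of all tested genes) and 2 rose (7.14%, near 8.03%), with a median log2 difference of −0.12. The 9 that fell became 3, 5, 2 and 1 without scrambled ASO replicates 1 and 2 and *Pgam* ASO replicates 1 and 2, and the 2 that rose became 3 without *Pgam* ASO replicate 3, 1 without scrambled ASO replicate 1 and 0 without *Pgam* ASO replicate 2. Among the ligands, *Ifng* was the one of 9 with enough counts to test. It had 134, 56 and 112 counts in the libraries labelled scrambled ASO, against 434, 216 and 130 where the label is *Pgam* ASO. The lowest of the second group was close to the highest of the first; in CPM the groups did not overlap, at 7.54, 3.02 and 6.94 against 27, 13.9 and 7.69. The log2 difference of 1.47 (SE 0.52) did not pass (adjusted p = 0.0953, edgeR quasi-likelihood, Benjamini-Hochberg), and without *Pgam* ASO replicate 3 it did (0.0246, same test). *Ifnb1*, *Ifna2*, *Ifne* and *Ifnl3* had 0 counts in every library, which allows up to 3 counts in each by counting error alone. *Ifna1* had 2, 0 and 2 counts against 15, 3 and 0, and *Ifna4*, *Ifnk* and *Ifnl2* had at most 4 in any library, too few to test.

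Receptor transcripts were lower. Of 6 receptor genes, a grouping made after the values were seen, 5 were tested and 4 fell (*Ifnar1*, *Ifnar2*, *Ifngr1* and *Il10rb*), which is 80% against 9.15% of all tested genes. The count was 2, 2, 1 and 1 without scrambled ASO replicates 1 and 2 and *Pgam* ASO replicates 1 and 2, 3 with a replicate block and 3 without a filter on low counts. *Ifnar1*, a chain of the type I receptor, had 159, 200 and 143 CPM against 73.9, 79.4 and 99 CPM. The groups were well apart, and *Ifnar1* fell (log2 −0.99, SE 0.14, adjusted p = 0.00336, edgeR quasi-likelihood, Benjamini-Hochberg) with any one library left out. *Ifnar2*, the other chain, had 46.9, 63.8 and 44.9 CPM against 30.7, 34.3 and 35.7 CPM. It fell without overlap (log2 −0.63, SE 0.14, adjusted p = 0.0183, edgeR quasi-likelihood, Benjamini-Hochberg), a call lost without *Pgam* ASO replicate 1 or 2 (0.0639 to 0.0873, same test). *Ifngr1*, the ligand-binding chain for interferon-gamma, had 205, 292 and 164 CPM against 59, 86.8 and 116 CPM. Both groups were spread but did not overlap, and *Ifngr1* fell (log2 −1.34, SE 0.30, adjusted p = 0.0309, edgeR quasi-likelihood, Benjamini-Hochberg). Its call was lost without scrambled ASO replicates 1 or 2 or *Pgam* ASO replicates 1 or 2 (0.0511 to 0.117, same edgeR test and Benjamini-Hochberg adjustment) and without a filter on low counts (0.132). *Ifngr2*, its signalling partner, had 44.4, 47.6 and 45.8 CPM against 34.5, 41.1 and 39.1 CPM, lower in all 3 libraries labelled *Pgam* ASO but short of the threshold (log2 −0.26, SE 0.10, adjusted p = 0.0856, edgeR quasi-likelihood, Benjamini-Hochberg).

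Downstream, *Stat2*, a signal transducer of the type I pathway, had 87.6, 92.6 and 86.4 CPM against 99.9, 98.4 and 101 CPM, higher in all 3 libraries labelled *Pgam* ASO but short of the threshold (log2 0.16, SE 0.0762, adjusted p = 0.153, edgeR quasi-likelihood, Benjamini-Hochberg). *Socs1*, a feedback inhibitor of the JAK kinases that interferons induce, had 162, 105 and 169 CPM against 271, 253 and 237 CPM. All libraries labelled *Pgam* ASO were higher, and *Socs1* rose (log2 0.80, SE 0.16, adjusted p = 0.0147, edgeR quasi-likelihood, Benjamini-Hochberg). Leaving out *Pgam* ASO replicate 2 ended that call (0.0674, same edgeR test and Benjamini-Hochberg adjustment).

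**Figure D5:**
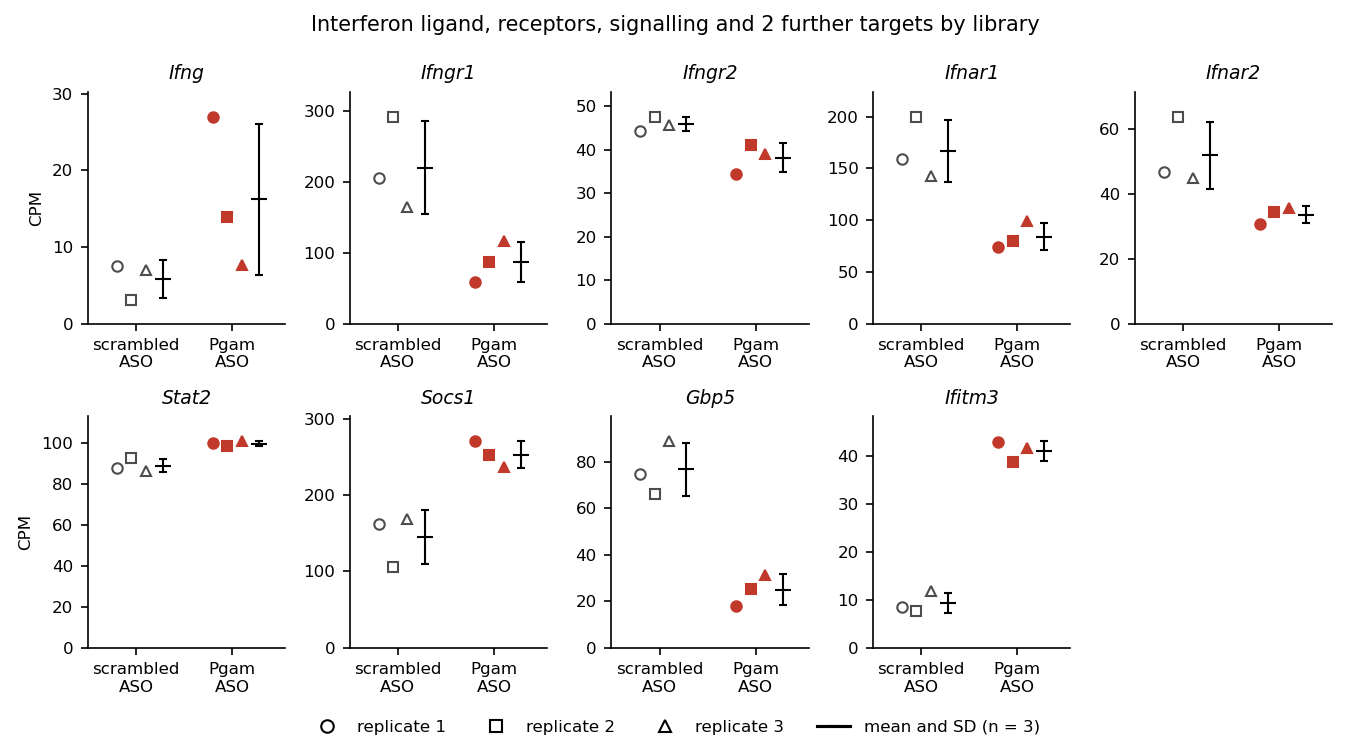
CPM of 9 pathway genes named in the text in the 6 libraries, 1 panel a gene with its own vertical axis from 0, a point for each library and a cross with its bar for group mean and SD (n = 3). *Ifnar1*, *Ifnar2*, *Ifngr1* and *Gbp5* lie lower and *Socs1* and *Ifitm3* higher in the libraries labelled *Pgam* ASO.

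In the wider list of GTPases, 13 of 16 were tested and 6 fell (46.2%, against 9.15% of all tested genes), with a median log2 difference of −0.56. This list also holds *Ifi47*, and *Mx2*, which fell, is counted in it and among the other interferon-stimulated genes; *Mx2* missed the threshold with any single library left out except scrambled ASO replicate 3 (adjusted p from 0.0527 to 0.154, edgeR quasi-likelihood, Benjamini-Hochberg). Those 6 became 3, 4, 3 and 2 without scrambled ASO replicates 1 and 2 and *Pgam* ASO replicates 1 and 2, 9 without scrambled ASO replicate 3 and 3 with a replicate block. *Gbp5*, a guanylate-binding protein linked to inflammasome activation, had 74.6, 66.3 and 89 CPM against 17.9, 25.4 and 31.4 CPM. Its groups were far apart, and *Gbp5* fell (log2 −1.62, SE 0.19, adjusted p = 0.00179, edgeR quasi-likelihood, Benjamini-Hochberg) with any one library left out. *Tgtp2*, a T cell GTPase of the immunity-related family, had 17.2, 19.2 and 10.8 CPM against 5.16, 7.06 and 6.39 CPM. It fell without overlap (log2 −1.34, SE 0.23, adjusted p = 0.00652, edgeR quasi-likelihood, Benjamini-Hochberg) but shares 90.5% of its 31-base stretches, nearly all with *Tgtp1*. The counts of the pair summed gave −1.07 (adjusted p = 0.00411, edgeR quasi-likelihood, Benjamini-Hochberg).

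Of 86 other interferon-stimulated genes, 73 were tested, 9 fell (12.3%, near the 9.15% of all tested genes) and 7 rose (9.59%, near 8.03%), with a median log2 difference of −0.00266, beside −0.00608 for all tested genes. The 9 became 2, 4, 2 and 0 without scrambled ASO replicates 1 and 2 and *Pgam* ASO replicates 1 and 2. They became 16 and 14 without scrambled ASO replicate 3 and *Pgam* ASO replicate 3. The 7 became 3 without scrambled ASO replicate 1 and 3 without *Pgam* ASO replicate 2. DESeq2 called 14 lower and 9 higher. Of 84 tested by edgeR without a filter on low counts, 14 were lower and 11 higher. *Ifitm3*, a membrane protein that blocks virus entry, had 8.5, 7.72 and 11.7 CPM in the libraries labelled scrambled ASO and 42.9, 38.8 and 41.7 CPM in those labelled *Pgam* ASO. All libraries of the second group were far above the first, and *Ifitm3* rose 4.43-fold (log2 2.15, SE 0.15, adjusted p = 0.000183, edgeR quasi-likelihood, Benjamini-Hochberg). *Lgals3bp*, a secreted galectin-binding protein, had 118, 121 and 116 CPM against 188, 190 and 190 CPM. Replicates were nearly equal within each group, and *Lgals3bp* rose 1.6-fold (log2 0.68, SE 0.0741, adjusted p = 0.000884, edgeR quasi-likelihood, Benjamini-Hochberg). *Ly6a*, the surface protein Sca-1 of activated T cells, had 81.5, 90.8 and 80.1 CPM against 136, 121 and 121 CPM, without overlap. It rose 1.5-fold (log2 0.58, SE 0.0885, adjusted p = 0.00396, edgeR quasi-likelihood, Benjamini-Hochberg), and summed with the genes that share its stretches the value was 0.46 (0.0207, same test). These 3 calls held with any one library left out.

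Antigen presentation genes were grouped after the values were seen. Of 14 genes for MHC class I, its peptide supply and its regulator NLRC5, *Tap1* included, 2 rose (*Psmb8* and *Psmb10*, subunits of the immunoproteasome), which is 14.3% against 8.03% of all tested genes. The median log2 difference was 0.0753, with values between −0.18 and 0.43. The count of 2 became 0 with a replicate block, 0 without scrambled ASO replicate 1, *Pgam* ASO replicate 1 or *Pgam* ASO replicate 2, and 1 without scrambled ASO replicate 2 or with scaling by library size alone. *H2-T23*, a nonclassical MHC gene, had a log2 difference of −0.17 (adjusted p = 0.137, edgeR quasi-likelihood, Benjamini-Hochberg), and −0.29 when summed with *H2-T-ps*, the gene that shares the most sequence with it (0.0325, same test). *B2m*, the light chain of MHC class I, had 933, 976 and 1048 CPM against 967, 1131 and 1082 CPM, and its groups overlapped.

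Markers of the cells that could be present were read beside these results. The 9 CD4 T cell markers were all tested, with *Cd4* the most abundant, and summed to 3454, 3741 and 3250 CPM against 2756, 2920 and 3051 CPM; *Cd28* and *Trac* fell, the second not without scrambled ASO replicates 1 or 2 or *Pgam* ASO replicates 1 or 2 (0.0898 to 0.153, edgeR with Benjamini-Hochberg adjustment). The 5 Treg markers summed to 3029, 2886 and 3331 CPM against 3722, 3750 and 3378 CPM, mostly *Il2ra*. Of these *Foxp3*, the factor that defines Treg cells, fell (log2 −1.41, SE 0.20, adjusted p = 0.00567, edgeR quasi-likelihood, Benjamini-Hochberg) with any one library left out. Of the others *Ikzf2* fell and *Il2ra* rose, calls lost without scrambled ASO replicate 1 or *Pgam* ASO replicates 1 or 2, and that of *Ikzf2* also without scrambled ASO replicate 2 (0.0639 to 0.139 in all, edgeR with Benjamini-Hochberg adjustment).

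Markers of other cells were low. The 4 B cell markers summed to 8.44, 10.4 and 5.64 CPM against 7.2, 6.93 and 7.1 CPM, with *Cd79a* the most abundant, and the 5 macrophage and monocyte markers to 2.98, 3.51 and 1.8 CPM against 2.79, 2.31 and 3.08 CPM, with *Lyz2* the most abundant. The groups overlapped in both lists. Those of plasmacytoid dendritic cells, the main producers of type I interferon, summed to 87.4, 70.4 and 108 CPM against 148, 130 and 128 CPM, but most of it was *Bst2*, itself a member that activated T cells express. *Tcf4* made up most of the rest, at 10.8, 13.2 and 11.3 CPM against 7.89, 7.96 and 9.11 CPM, lower in all 3 libraries labelled *Pgam* ASO and short of the threshold (log2 −0.50, SE 0.16, adjusted p = 0.0519, edgeR quasi-likelihood, Benjamini-Hochberg), and the defining marker *Siglech* was at 0 in every library. The 4 NK cell markers summed to 52.7, 32.7 and 55.1 CPM against 28.4, 27.1 and 24.4 CPM, nearly all of it *Eomes*, which T cells can express and which fell, though not without scrambled ASO replicate 1 or *Pgam* ASO replicates 1 or 2 (0.053 to 0.0893, edgeR with Benjamini-Hochberg adjustment); *Klrb1c* was at 0 in every library. The CD8 markers *Cd8a* and *Cd8b1* summed to 11.3, 13.5 and 10.8 CPM against 14.6, 10.9 and 15.7 CPM, with *Cd8b1* the more abundant; *Cd8a* rose, though not without scrambled ASO replicate 1 or *Pgam* ASO replicate 1 (0.0989 to 0.1, same test). The part of these markers in the results for the interferon-stimulated genes was not tested.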

How the data were processed

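The authors' deposited table holds counts per Ensembl gene (Kallisto estimates, whole numbers, not normalized) for 6 libraries; the submitters' notes name GRCm38, and the version, annotation and summing are not given in the sources used here. Groups were compared with edgeR 4.0.16 in R 4.3.3 (filterByExpr, TMM, robust quasi-likelihood fit, two-sided), adjusted by Benjamini-Hochberg over 14936 genes. SE is the log2 fold change over the square root of F. Exon lengths and gene positions are from GENCODE M21, which lacks 4623 listed IDs (1.4% of counts). The members and lists were chosen with earlier results of these data known. Values in every library were given for the 7 GTPases, *Irf1*, *Irf7*, *Irf9*, the 8 other members with the smallest adjusted p, pathway genes by name and 5 more by adjusted p with a mean log2 CPM of at least 1; other genes named were chosen after their values were seen. Alternatives were DESeq2 1.42.0, limma-voom 3.58.1, other scalings and filters, a replicate block, a stricter threshold, *Ifi47* counted with the GTPases, counts summed over genes sharing at least 10% of 31-base stretches, and each library left out. Tables and figures were made with Python 3.11.15, pandas 2.3.3, numpy 2.4.6 and matplotlib 3.10.9.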

Additional observations from a re-analysis of the deposited data

How the results depend on the processing

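Direction was the same in every alternative for the members that passed the test. The same held for the passing pathway genes chosen by name or by adjusted p. Over all genes, those lower numbered 755 with a replicate block and 231 to 1773 with a library left out; those higher numbered 1832 with no filter on low counts, 480 with the block and 160 to 1711 with a library left out. Members lower numbered 3 at adjusted p under 0.01 and 3 to 13 with a library left out; members higher numbered 1 at that threshold, 2 with the block and 1 to 5 with a library left out. Antiviral members lower numbered 3 with DESeq2, 4 with no filter and 0 to 5 with a library left out; those higher numbered 2 with the block and 1 to 5 with a library left out. GTPases lower numbered 3 to 6 with a library left out, 5 with the block, and 7 of 8 with *Ifi47* counted among them; the cause was not tested in any of these cases. Across genes, deviations from the group mean correlated at 0.0534, −0.034 and −0.237 between cultures of equal replicate number. Between cultures of unequal number the correlations ran from −0.254 to 0.28. Equal numbers thus did not mark the more alike cultures, but whether they shared a mouse is not known. With the block, *Igtp* (0.0603), *Ifi47* (0.0552), *Ifi35* (0.0586) and *Oas3* (0.0714) missed the threshold, as did *Mx2* (0.0849), *Il10rb* (0.0723), *Psmb8* (0.0514), *Psmb10* (0.104), *Trac* (0.1), *Ikzf2* (0.0745) and *Cd8a* (0.0699) (edgeR, Benjamini-Hochberg adjusted p). The block also changed counts over lists: 5 signalling genes were lower and 2 higher, and 5 other interferon-stimulated genes were lower and 4 higher. Omitting a library did not always lower the number of calls: over all genes it was 3484 without scrambled ASO replicate 3 and 3319 without *Pgam* ASO replicate 3, beside 2565 with all 6 libraries. *Oasl1*, at 4 to 11 counts a library, was tested without a filter alone, at −0.55 (adjusted p = 0.659, edgeR).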
